A study of Sus scrofa with 6 samples.

Results

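The genes described here encode 5 cell surface proteins with which leukocytes and vessel walls hold on to each other: ITGB2, VCAM1, ICAM1, SELE and SELP. Their probes were chosen by annotation alone, as every non-control probe of a 1-colour Agilent pig array whose design name is a pig RefSeq transcript of 1 of these genes. All 5 genes had such a probe, out of 2384 genes that could be named this way, with 6 probes of 43603: 2 for SELE (both NM_214268) and 1 each for ITGB2 (NM_213908), VCAM1 (NM_213891), ICAM1 (NM_213816) and SELP (NM_214078). The arrays carried RNA from pig femoral arteries taken at the site where the vessel had been punctured and repaired. In 3 samples the puncture had been closed with TAG, the vascular glue under study, and in 3 with Exoseal, a marketed closure device. All 6 samples are labelled as left-sided, and the labels used here give neither the strain nor the age of the pigs, nor the time between closure and sampling. Nothing in the labels ties the samples to separate animals. The p-values thus reflect how much these 6 samples vary, and that variation may be technical. There was no unpunctured artery among the samples, so each value compares 1 closure with the other and not with a healthy vessel.

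Leukocytes leave the blood in steps. Selectins on activated endothelium, E-selectin (SELE) and P-selectin (SELP), catch passing cells and let them roll; SELP is also stored in platelets and exposed when they are activated. Integrins of the leukocyte, whose shared beta-2 chain is encoded by ITGB2, then bind ICAM1 and stop the cell, while VCAM1 on endothelium, and on smooth muscle of injured arteries, is bound by another leukocyte integrin that does not use the beta-2 chain. SELE, VCAM1 and ICAM1 are classic genes switched on in endothelium by inflammatory cytokines, and ITGB2 is made by leukocytes themselves.

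Exoseal replicate 1 carries both treatments in its labels: its title and source name give Exoseal and its treatment field gives TAG. It was kept as Exoseal, and results are given also without it and with it counted as TAG. By the scan identity in the file headers, Exoseal replicate 1 lay on 1 slide with the 3 TAG arrays, and Exoseal replicates 2 and 3 lay on another. The TAG arrays had 34.7% to 41.2% of their probes well above background and the Exoseal arrays 60.6% to 70.8%, and the 75th percentile of the processed signal was 19.3 to 36.4 on TAG arrays and 61.0 to 151 on Exoseal arrays. Levels are therefore given as log2 of the processed signal minus the 75th percentile of that array, so that 0 is the brightness of the 75th percentile probe. In this fit 10.3% of 20857 features passed an adjusted p of 0.05 (limma, two-sided, Benjamini-Hochberg over all features), with 3.67% lower and 6.59% higher in TAG. The split of 1374 higher and 765 lower became 1361 and 1413 with quantile scaling, and 508 and 597 with median scaling. Over all features the log2 difference had a median of 0.03, which became -0.08 with quantile scaling, -0.43 with median scaling and 0.17 when scaled on probes detected on all arrays. Smooth muscle genes, which define the artery wall, were well above background on all 6 arrays for each of the 5 with a probe (ACTA2, CNN1, MYLK, DES and TPM2).

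The adhesion molecule probes were detected nearly throughout. Of their 36 spots 34 were well above background, 18 of 18 on Exoseal arrays and 16 of 18 on TAG arrays, and none was saturated. The spots not well above background were that of ITGB2 on TAG replicate 3 and that of 1 SELE probe on TAG replicate 2. All 5 genes passed the filter, which asked for a signal well above background on at least 3 of 6 arrays. Of the 5 genes, ITGB2 alone passed the test between the closures, against the 10.3% of all features.

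ITGB2 was lower in arteries closed with TAG than in those closed with Exoseal. Its processed signal was 15.1, 17.8 and 7.87 on TAG replicates 1 to 3, and 117, 489 and 66.2 on Exoseal replicates 1 to 3. The scanner software put its own error at 16.7% to 29.5% of the signal on the TAG arrays and at about 10% on the Exoseal arrays (10.0% to 10.3%). After scaling, the log2 levels were -1.27, -0.53 and -1.29 in TAG and 0.77, 1.70 and 0.12 in Exoseal. Every TAG array lay below every Exoseal array. Groups that do not overlap were common in this experiment, at 35.7% of all features and 16.7% for those lower in TAG. By rank within its own array, the probe was brighter than 57.9% to 69.7% of probes on TAG arrays and than 75.9% to 85.6% on Exoseal arrays.

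The mean log2 level of ITGB2 was -1.03 ± 0.43 in TAG and 0.86 ± 0.79 in Exoseal (SD, n = 3). The difference was -1.89 ± 0.52 (SE), a 3.72-fold fall with a 95% interval of 1.65-fold to 8.38-fold, and its adjusted p in limma was 0.0497. This lay just under the threshold, and 3.73% of all features had a log2 difference as low or lower. An exact two-sided permutation test of these 6 values gave p = 0.1, the smallest that 3 arrays against 3 allow. The alternatives with no filter, the mean of probes, each probe a feature or the replicate block repeat the difference, so their sign was fixed. Slide as a block and slide 1 alone share the same difference. Because the groups did not overlap, its sign was fixed too, as was the sign with any 1 array left out. With these repeats counted, the call held in 4 of 19 alternatives and the sign in 19 of 19 (log2 differences from -2.36 to -0.85, the smallest with normexp background correction). It was lost with slide as a block, under which 8.87% of features passed (-1.81, adjusted p = 0.0933), with median scaling (-2.36, adjusted p = 0.0589), with Exoseal replicate 1 counted as TAG (-1.49, adjusted p = 0.140) and without any 1 of TAG replicates 1 to 3 or Exoseal replicates 2 and 3 (adjusted p from 0.0928 to 0.189 in limma), while without Exoseal replicate 1 it was -1.94 (adjusted p = 0.00960).

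**Figure D1:**
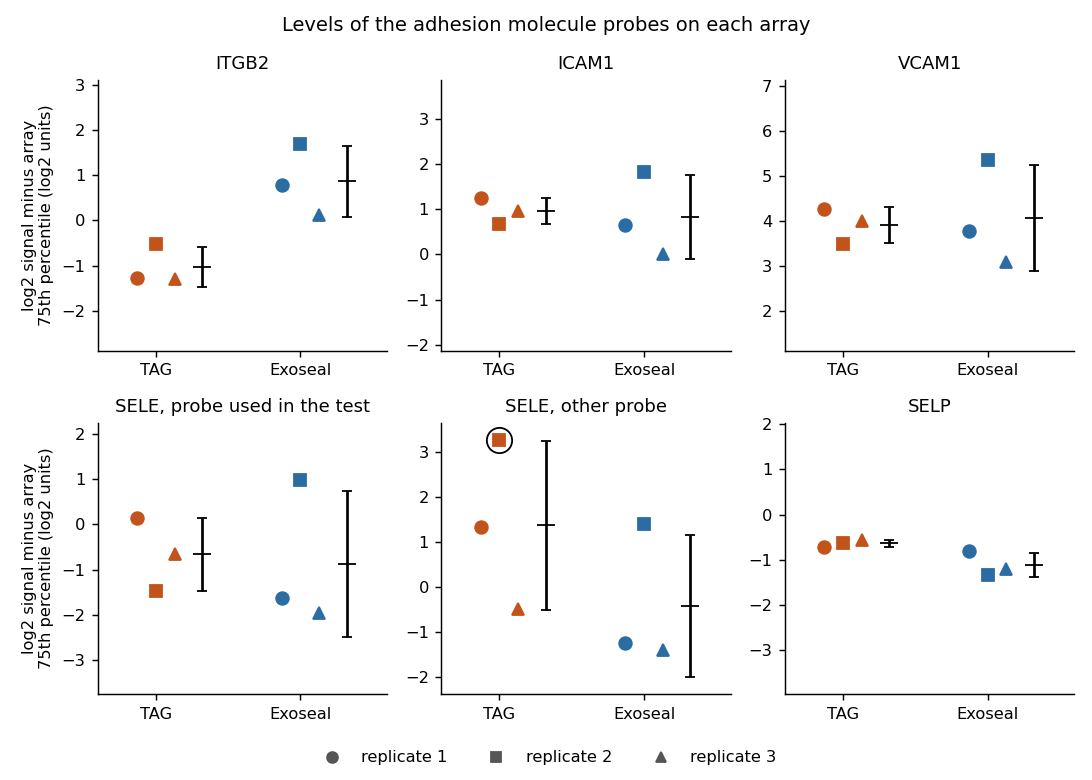
Log2 signal minus the 75th percentile of the array (y axis, log2 units) for each probe on the 3 TAG arrays (orange) and the 3 Exoseal arrays (blue), with mean and SD as a black bar beside each group; every panel spans the same number of log2 units, and panels are not to be compared in height. For ITGB2 the TAG arrays (-1.29 to -0.53) lie below the Exoseal arrays (0.12 to 1.70); the ringed SELE point carried an outlier flag.

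VCAM1 and ICAM1 did not pass the test, and their groups overlapped. VCAM1, the endothelial ligand of the integrin VLA-4, had processed signals of 706, 289 and 308 on TAG replicates 1 to 3 and of 934, 6177 and 517 on Exoseal replicates 1 to 3. Its scaled log2 levels were 4.28, 3.49 and 4.0 in TAG and 3.77, 5.36 and 3.08 in Exoseal. Both the highest and the lowest level belonged to Exoseal, in replicates 2 and 3, which shared a slide. The SD was 0.40 over the TAG arrays and 1.17 over the Exoseal arrays, and the log2 difference was -0.15 ± 0.61 (SE), with a 95% interval of -1.51 to 1.22 and an adjusted p of 0.896 in limma. The sign was not stable: the difference was 0.50 without Exoseal replicate 2, 0.068 without TAG replicate 2 and 0.15 on slide 1 alone.

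ICAM1, the ligand of the beta-2 integrins, ranked the TAG arrays among themselves, and the Exoseal arrays among themselves, in the same order as VCAM1. Its processed signal was 86.5, 40.7 and 37.7 in TAG and 107, 538 and 61.1 in Exoseal, in the order of the replicates. The scaled log2 levels were 1.25, 0.66 and 0.97 in TAG and 0.65, 1.83 and 0.0032 in Exoseal, so that the TAG arrays again lay between Exoseal replicates 2 and 3. The log2 difference was 0.13 ± 0.54 (SE), with a 95% interval of -1.08 to 1.34 and an adjusted p of 0.896 in limma. It fell to -0.015 without TAG replicate 1 and to -0.28 without Exoseal replicate 3. The intervals of VCAM1 and ICAM1 hold more than a 2-fold change either way, so these arrays do not exclude a difference of that size.

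E-selectin was read by 2 probes that differed most on 1 array. Probe A_72_P440056 had processed signals of 40.2, 9.34 and 12.2 on TAG replicates 1 to 3 and 22.1, 298 and 15.6 on Exoseal replicates 1 to 3. Probe A_72_P035596 had 92.5, 250 and 14.1 in TAG and 29.6, 408 and 23.6 in Exoseal. On the arrays other than TAG replicate 2 the second probe was brighter than the first by 1.16-fold to 2.30-fold, and on TAG replicate 2 their signals were 250 and 9.34, the latter not well above background, so that no exact ratio holds there. The brighter of these spots carried the scanner's flag for uneven pixels; the median of its pixels was 157 before background subtraction, below its processed signal of 250. Such spots were left out, and with them the probe, so the first probe stood for SELE in the test.

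By that first probe SELE was highest on Exoseal replicate 2 and lowest on Exoseal replicate 3. The scaled log2 levels were 0.14, -1.46 and -0.66 in TAG and -1.63, 0.98 and -1.97 in Exoseal, and the groups overlapped. The log2 difference was 0.21 ± 0.78 (SE), with a 95% interval of -1.54 to 1.97 and an adjusted p of 0.883 in limma. It was 1.14 without Exoseal replicate 2 and below 0 without TAG replicate 1 (-0.19), Exoseal replicate 1 (-0.17) or Exoseal replicate 3 (-0.34). With the flagged spot kept, the second probe gave 1.78 ± 1.01 (SE), with an adjusted p of 0.266, and its mean difference was 0.84 with TAG replicate 2 left out.

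P-selectin had the smallest spread of the 5 genes, and its direction rested on the scaling. Its processed signal was 22, 16.7 and 13.1 on the TAG arrays and 38.9, 60.0 and 26.4 on the Exoseal arrays, lower on every TAG array. Scaled to the 75th percentile of the array, the log2 levels were -0.73, -0.63 and -0.56 in TAG and -0.81, -1.33 and -1.21 in Exoseal, higher on every TAG array. The log2 difference was 0.48 ± 0.41 (SE) with a 95% interval of -0.45 to 1.41, and SELP did not pass (adjusted p = 0.475 in limma; exact two-sided permutation p = 0.1, the smallest possible). With median scaling it was 0.016, and by rank within the array the probe was brighter than 67.0% to 68.6% of probes on TAG arrays and than 64.7% to 65.1% on Exoseal arrays. The groups of SELP did not overlap, as for 35.7% of all features.

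**Figure D2:**
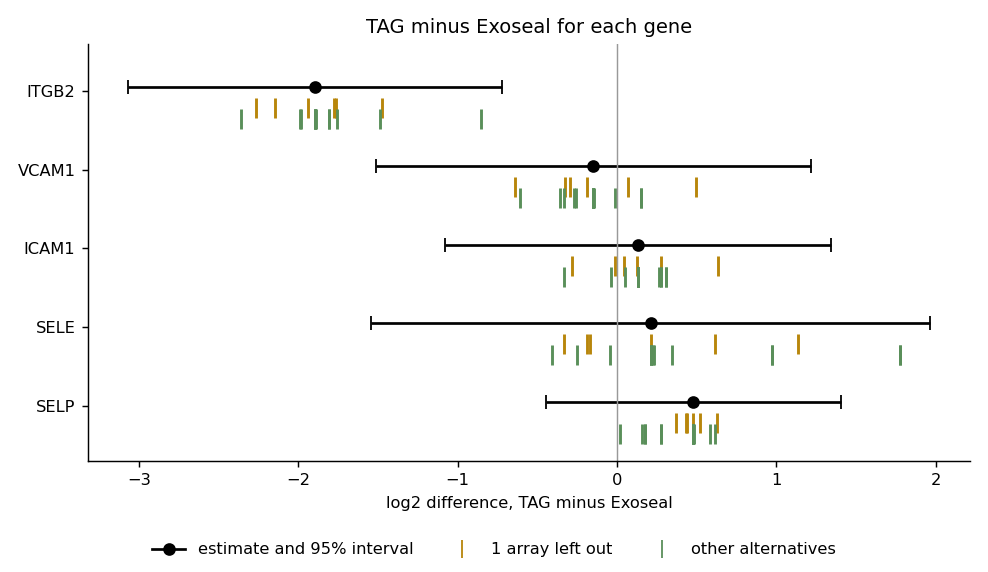
Log2 difference, TAG minus Exoseal (x axis), for each gene, with the limma estimate and its 95% interval in black, the values with 1 array left out in gold and those of the other alternatives in green. The interval of ITGB2 (-3.07 to -0.72) lies below 0, while those of VCAM1, ICAM1, SELE and SELP include it.

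Ratios of 2 genes within an array do not depend on any scaling by 1 factor per array, and were computed for the 10 pairs after the data had been examined. The size of a ratio has no meaning, since probes differ in brightness, but its change between arrays does. The signal of ITGB2 over that of ICAM1 was 0.174, 0.438 and 0.209 on the TAG arrays and 1.09, 0.910 and 1.08 on the Exoseal arrays. The Exoseal arrays had close ratios although their scaled log2 levels of ITGB2 ran from 0.12 to 1.70, and each TAG array lay below all of them. The mean log2 ratio was 2.02 lower in TAG, or 4.07-fold, and 2.11 lower on slide 1 alone, where Exoseal replicate 1 is the single Exoseal array. Over VCAM1 the mean log2 ratio of ITGB2 differed by -1.75 and over SELP by -2.37, both without overlap, and over SELE by -2.11 with overlap, since the log2 ratio on TAG replicate 2 (0.93) lay above that on Exoseal replicate 2 (0.72); the SELE spot of that TAG array was not well above background, nor was the ITGB2 spot of TAG replicate 3, so ratios with those spots are not exact. In all 4 pairs with ITGB2 the sign was negative in 12 of 12 alternatives, many of which could not have changed it. Over VCAM1, ICAM1 and SELP, where the groups did not overlap, it was fixed on slide 1 alone and with 1 array left out. Keeping the outlier-flagged spots repeated the main difference in those pairs. With normexp background correction the differences shrank to -0.49 over VCAM1, -0.90 over ICAM1, -0.81 over SELE and -1.01 over SELP.

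VCAM1 and ICAM1 kept close to each other. Their signal ratio was 8.17, 7.10 and 8.18 in TAG and 8.70, 11.5 and 8.46 in Exoseal, a span of 0.69 on the log2 scale. Over the same arrays the scaled log2 level of VCAM1 ran from 3.08 to 5.36. The mean log2 ratio was 0.28 lower in TAG (2.96 ± 0.12 against 3.24 ± 0.24, SD, n = 3), and every TAG array was below every Exoseal array. With quantile scaling this difference was -0.54. The exact two-sided permutation p was 0.1, the smallest possible, for the 4 pairs without overlap (ITGB2 with VCAM1, ICAM1 and SELP, and VCAM1 with ICAM1), and 0.25 after Benjamini-Hochberg adjustment over the 10 pairs, so that none passed. Of the other pairs with SELE or SELP, the groups overlapped and the exact permutation p ran from 0.2 to 0.9.

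**Figure D3:**
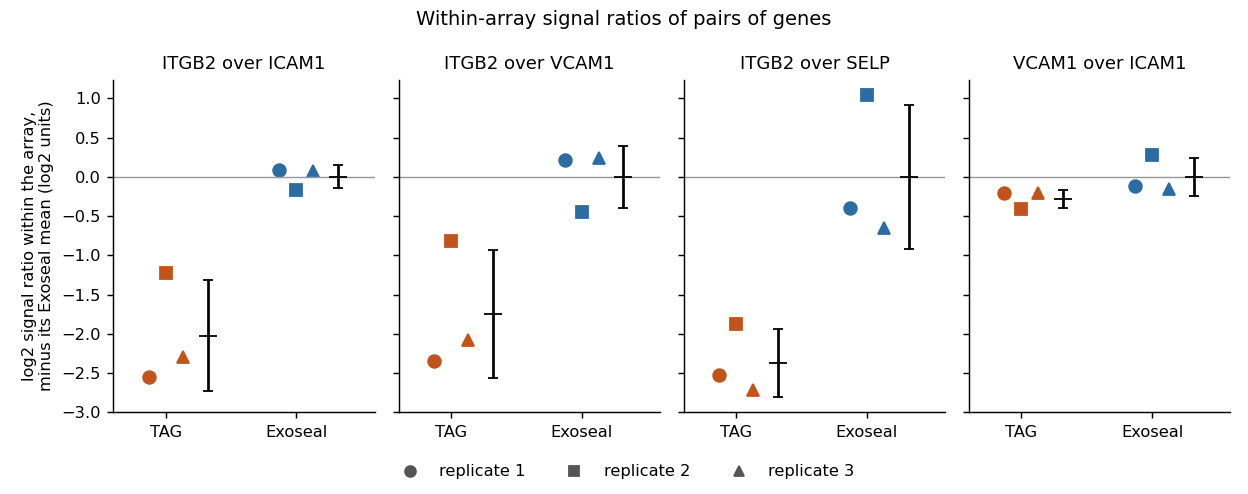
Log2 ratio of the signals of 2 genes within each array, minus the mean of that ratio over the Exoseal arrays (y axis, log2 units), for the 4 pairs whose groups did not overlap; symbols are replicates and black bars are mean and SD. ITGB2 over ICAM1 lay 2.02 lower in TAG on average, and VCAM1 over ICAM1 0.28 lower.

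Among themselves the genes varied in more than 1 way. Exoseal replicate 2 had the highest level of ITGB2, VCAM1, ICAM1 and SELE and the lowest of SELP. Likeness was measured as the mean absolute difference over the 6 arrays between log2 levels centred on each gene's mean. It was 0.15 between VCAM1 and ICAM1, the closest pair, 0.37 between VCAM1 and SELE, and 0.89 to 1.19 between ITGB2 and each of the others. SELE and SELP, which lie on the same chromosome in the RefSeq table of the pig genome, differed by 0.99.

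For each member the nearest other named genes were also sought. As the smallest of many distances these are close by selection, and the distances include the difference between closures. Of 1609 named genes, the nearest to ITGB2 were GP91-PHOX (also CYBB, the catalytic chain of the phagocyte NADPH oxidase) at 0.12, HPRT1 (a purine salvage enzyme) at 0.12 and FCGR2B (an inhibitory antibody receptor) at 0.24, against a median of 1.1. The nearest to VCAM1 were IRF1 (an interferon-induced transcription factor) at 0.19, CRYZ (quinone reductase zeta-crystallin) at 0.19 and KLF10 (a transcription factor) at 0.22. Those of ICAM1 were CRYZ at 0.13, DEFB1 (a beta-defensin) at 0.18 and ATP6V1G1 (a proton pump subunit) at 0.18. Near SELE were PDK4 (a kinase of pyruvate dehydrogenase) at 0.32 and KCNA5 (a potassium channel) at 0.38. For SELP they were RPL14 (a ribosomal protein) at 0.078, TMSB10 (thymosin beta 10) at 0.081 and ARSA (arylsulfatase A) at 0.11, with a median over all named genes of 0.57. Of these neighbours GP91-PHOX alone passed the test between closures, with a log2 difference of -2.07 ± 0.51 (adjusted p = 0.0377 in limma). With its probes averaged GP91-PHOX had -0.63 and did not pass. HPRT1 had -1.78 and lay just outside the threshold (adjusted p = 0.0531 in limma).

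The partners of the adhesion molecules were sparsely measured. Of 8 other integrin chains 2 had a probe and 1 was tested: ITGB1, the beta-1 chain with which VLA-4 binds VCAM1, had 0.48 (adjusted p = 0.527), and -0.50 with quantile scaling, while ITGAL, the alpha chain of LFA-1, was well above background on 0 TAG arrays and 2 Exoseal arrays. Of 15 selectin ligands and enzymes that make them 2 were tested and neither passed, with CD34 at 0.60 (adjusted p = 0.440), and SELPLG, the P-selectin ligand of leukocytes, was well above background on 0 of 6 arrays. Of 11 other immunoglobulin-type adhesion molecules 4 were tested and 0 passed in limma, with PECAM1, a junction protein of endothelium and leukocytes, at -1.57 (adjusted p = 0.164) or 0.74 with its probes averaged.

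Of 3 tested genes of integrin activation 1 rose and 1 was lower, against 6.59% and 3.67% of all features. SYK, a kinase acting below beta-2 integrins and immune receptors, rose by 2.26 ± 0.45 on the log2 scale (adjusted p = 0.0245 in limma), was 2.31 on slide 1 alone, and lost its call with median scaling (1.8) and when its probes were averaged (2.08). PIK3R5, which regulates PI3-kinase gamma, was dim (not well above background) on all 3 TAG arrays and at least 3.24-fold lower there (adjusted p = 0.0232), but it met the detection filter through the Exoseal arrays alone, so that its count as lower was partly fixed by the filter. Of 10 tested genes that induce adhesion molecules (cytokines, their receptors and NF-kappaB) 0 passed, and they went both ways. The smallest p belonged to NFKBIA, the inhibitor induced by NF-kappaB, at 1.45 (adjusted p = 0.116 in limma). IL13, TNFRSF1A, JUN and RELA were higher in TAG too (1.43 to 0.02). IL1B, IL6, TNFRSF1B, TNF and IRF1 were lower (-1.63 to -0.21), IL6 by -1.54 or -0.17 with its probes averaged. The median was -0.09 against 0.03 for all features. Of 10 tested chemokines and receptors 2 fell, against 3.67% of all features. CCR1, a receptor of monocytes and neutrophils, had a log2 difference of -4.52 ± 0.53 (adjusted p = 0.0178 in limma). CXCL10, an interferon-induced chemokine, had -1.90 ± 0.49 (adjusted p = 0.0410 in limma). It did not pass with slide as a block (adjusted p = 0.0706 in limma) or with its probes averaged (-1.78). Without passing, CCL4, CCL5 and CXCL8 were higher in TAG (2.08, 1.71 and 0.90), CCL5 on every TAG array. CCL2, CCR2, CCL3L1, CXCL12 and CXCL2 were lower (-1.55 to -0.20), also without passing. The median of the list was -0.41. MMP9 (gelatinase B) was the single sheddase-type protease tested and fell by 2.58 ± 0.50 on the log2 scale; with its probes averaged it had -1.40 and did not pass.

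Markers of the cells that carry these molecules moved too. In bulk tissue fewer cells of a type and less RNA per cell cannot be told apart. Beside the fall of ITGB2, 5 of 10 tested macrophage and monocyte genes fell and 0 rose, among them LYZ (lysozyme) with a log2 difference of -3.64 ± 0.66, LGALS3 (galectin 3) with -2.31 ± 0.49 and GP91-PHOX with -2.07 ± 0.51 (adjusted p = 0.0229, 0.0279 and 0.0377 in limma). The background for genes lower in TAG was 3.67%, and with slide as a block GP91-PHOX did not pass (adjusted p = 0.0504). With probes averaged, LYZ and LGALS3 were the only ones of the 10 to pass, and CD86 went from -1.92 to 0.014. C1QA, CD14 and CD163 were higher in TAG without passing (0.68, 0.23 and 0.10), C1QA on every TAG array. FCER1G and TYROBP did not pass either. The median was -1.11 over the 10, -1.8 over the 9 that were well above background on some TAG array, and -1.82 on slide 1 alone. The summed level of the list, in multiples of the 75th percentile of each array, was 28.6 to 44.4 in TAG and 92.8 to 199 in Exoseal, with 142 on Exoseal replicate 1, and TYROBP was dim on all 3 TAG arrays. Without LGALS3, the brightest gene of the list, the sum was 17.8 to 26.8 in TAG and 51.6 to 99.2 in Exoseal. Of 4 tested neutrophil genes 0 rose and ARG1 (arginase 1) alone passed; it was dim on all 3 TAG arrays and at least 3.51-fold lower there, and it too met the filter through the Exoseal arrays alone. S100A12 and S100A8 were higher in TAG (1.72 and 0.38) and FCGR3A lower (-0.32), without passing. The neutrophil list had a summed level of 15.5 to 20.7 in TAG and 21.2 to 23.4 in Exoseal. S100A9 and LTF were also dim on all 3 TAG arrays, and well above background on 1 and 2 Exoseal arrays. With its probes averaged ARG1 had -0.39 and did not pass. Of 4 tested T and NK cell genes 0 passed in limma (smallest p GZMB, dim on all TAG arrays, adjusted p = 0.112). GZMB and GZMA met the filter through the Exoseal arrays alone. CD8A was higher on every TAG array (1.05, or 0.28 with its probes averaged). LCK was lower in TAG (-0.69, but 0.52 with its probes averaged). The summed level of the list was 6.06 to 8.79 in TAG and 7.29 to 13.2 in Exoseal. Of its 9 genes with a probe 7 were dim on all TAG arrays, where fewer probes of any kind were well above background. Of the 3 Exoseal arrays, CD4 was well above background on 0, CD3D and CD2 on 1, CD3E and CD3G on 2, and GZMB and GZMA on 3. None of 10 general leukocyte genes had a named probe. The part of these cells in the fall of ITGB2 was not tested.

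Endothelial markers went both ways, and the endothelial adhesion molecules did not pass. Of 7 tested endothelial genes 2 fell, against 3.67% of all features, CDH5 (VE-cadherin) with a log2 difference of -2.47 ± 0.56 and ANGPT2 (angiopoietin 2) with -1.70 ± 0.44 (adjusted p = 0.0318 and 0.0424 in limma), and 0 rose; the median was -0.52. With slide as a block neither passed (adjusted p = 0.130 and 0.101); CDH5 had -1.07 when its probes were averaged and did not pass. Among the other tested endothelial genes, none of which passed, PROCR, ENG and THBD were higher in TAG (0.98, 0.84 and 0.82). PECAM1 and NOS3 were lower (-1.57 and -0.52) but higher with their probes averaged (0.74 and 1.24). The summed level of the list was 13.4 to 17.9 in TAG and 27.0 to 67.6 in Exoseal, where 27.0 is Exoseal replicate 1. CLDN5 was dim on all 3 TAG arrays and well above background on 1 Exoseal array. Beside SELP, which platelets also store, 1 of 4 tested platelet genes rose, GP9 (a chain of the von Willebrand factor receptor) by 2.33 ± 0.60 on the log2 scale (adjusted p = 0.0423 in limma), against 6.59% of all features. GP9 had 1.06 with slide as a block and did not pass (adjusted p = 0.267). The median of this list was 0.83, and its summed level was 741 to 769 in TAG and 242 to 378 in Exoseal. ITGB3, an integrin chain of platelets and other cells named here after its values were seen, made up 87.2% to 91.1% of that sum in TAG and 57.0% to 88.1% in Exoseal; it did not pass (1.65, adjusted p = 0.0525 in limma) and had -0.15 with quantile scaling. Without it the sum was 68.1 to 98.2 in TAG and 44.7 to 104 in Exoseal, which overlap. The other tested platelet genes did not pass: ITGA2B was lower on every TAG array (-0.29), and CD9 had 0.017. PPBP and GP1BB were dim on all 3 TAG arrays and each well above background on 1 Exoseal array. The part of endothelial cells and platelets in the values of SELE, SELP, VCAM1 and ICAM1 was not tested.

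The wall and its surroundings differed as well. Of 5 tested smooth muscle genes 2 rose, against 6.59% of all features. ACTA2 (smooth muscle actin) rose by 2.22 ± 0.43 and DES (desmin) by 1.52 ± 0.40 on the log2 scale. MYLK was lower in TAG (-1.37) and CNN1 higher (0.73, but -0.37 with quantile scaling), without passing. The summed level of the list was 464 to 551 in TAG and 251 to 283 in Exoseal. DES did not pass with quantile scaling (0.75), and neither passed with slide as a block (adjusted p = 0.0528 for ACTA2 and 0.103 for DES in limma), while TPM2 (a tropomyosin), named after its values were seen, passed with that block (2.16, adjusted p = 0.0436) and not without it (0.94). Of 10 tested skeletal muscle genes 1 rose, a share near the 6.59% of all features: ACTA1 (skeletal actin), by 2.48 ± 0.41 on the log2 scale, but it had 0.30 with its probes averaged. With median scaling ACTA1, ACTA2, DES, CDH5, ANGPT2 and GP9 did not pass (adjusted p from 0.0523 for CDH5 to 0.185 for DES in limma). The summed level of that list was 58.2 to 72.0 in TAG and 21.4 to 38.8 in Exoseal, and without ACTA1 10.8 to 16.1 and 10.8 to 29.8. Of 3 tested fat genes 0 passed in limma, with LPL (lipoprotein lipase) at -0.79 (adjusted p = 0.345). ADIPOQ, LEP and CIDEC were dim on all 3 TAG arrays, and well above background on 2, 3 and 1 Exoseal arrays. The summed level of the fat list was 80.9 to 92.6 in TAG and 81.5 to 122 in Exoseal. Their part in the values of the adhesion molecules was not tested either.

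**Figure D4:**
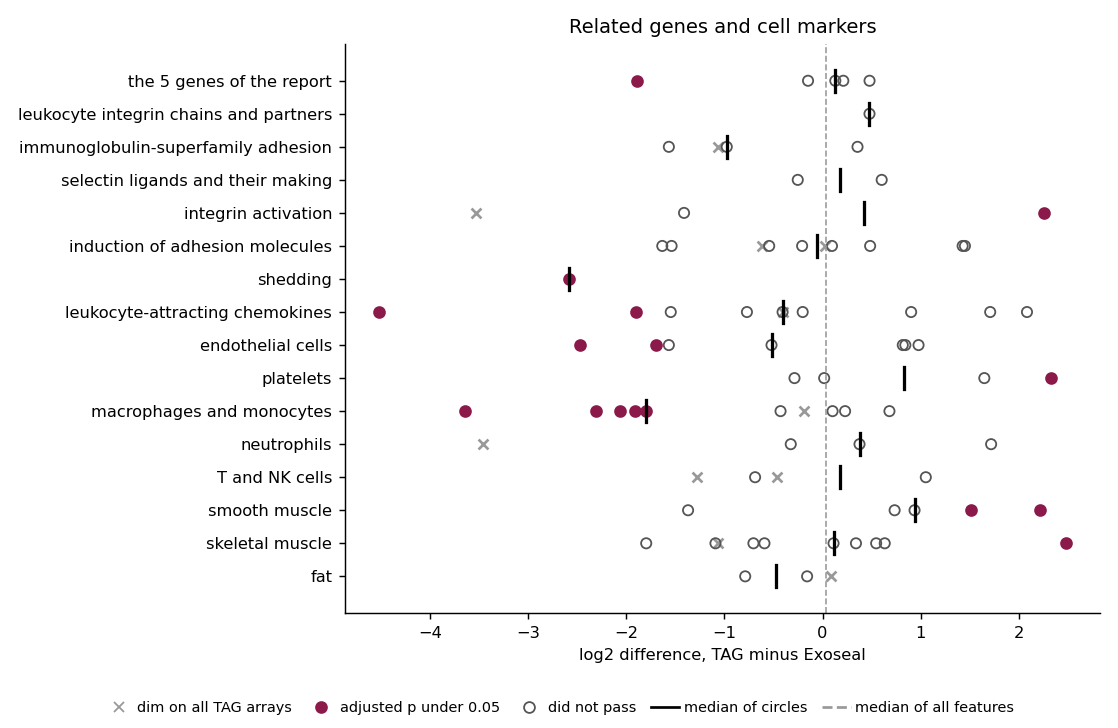
Log2 difference, TAG minus Exoseal (x axis), of the 5 genes and of the tested genes of each list (rows); filled circles passed an adjusted p of 0.05, open circles did not, crosses are genes dim on every TAG array, drawn at their fitted value, which is no measured size, black ticks are medians of the circles and the dashed line is the median of all features (0.03). ITGB2 (-1.89) lies below the other 4 genes (-0.15 to 0.48), and 5 of the 10 macrophage and monocyte genes are filled on the negative side.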

How the data were processed

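Cy3-labelled RNA from each sample was read on its own 1-colour array, per the labels' protocols. Per the file headers, the deposited intensity values come from Agilent Feature Extraction 11.0.1.1, which subtracted background within each array and did no scaling between arrays. The authors' deposited series table is on a log2 scale with a median of 3.40 in all 6 columns; how it was scaled is not stated there.

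Groups follow the sample titles. Spots with an outlier flag were left out, which removed 223 of 43603 probes. Probes were named by unversioned RefSeq accession through a RefSeq table of Sscrofa11.1 (5435 of 43380 probes). Coordinates are left out, the array's genome build being not given in the sources used here. The brightest probe stood for a gene, and features well above background on at least 3 of 6 arrays were tested without covariates by lmFit and eBayes (limma 3.58.1, R 4.3.3), after a check on simulated data. The scanner files used here hold spot medians, so normexp (offset 50) used those in place of spot means. The number of arrays limits the precision.

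Members, gene lists and tests were chosen with earlier results of these data known. The named genes are the 5 members, their 3 nearest named genes, and of each list up to 3 genes past the threshold with the largest difference or otherwise the gene of smallest p; some of these are not reported here. In lists, 2 names were matched through synonyms. No pair of arrays was identical.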

Additional observations from a re-analysis of the deposited data

How the results depend on the processing

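For every gene, no filter, the mean of probes, each probe a feature and the replicate block repeat the main difference. Slide as a block and slide 1 alone also share the same difference, so the counts of kept signs below hold repeats. For ITGB2 and SELP, whose groups did not overlap, the sign was fixed under both and with any 1 array left out. SELP kept its sign and its side of the threshold in 20 of 20 alternatives (0.016 to 0.63). ITGB2 kept its sign in 19 of 19 and its call in 4; with a filter on all 6 arrays ITGB2 and SELE gave no value. ITGB2 lost its call with median scaling (-2.36), scaling on probes detected on all arrays (-1.76), normexp (-0.85), no filter, the mean of probes, outlier-flagged spots kept (added after the data were examined) or the replicate block (-1.89 each), slide as a block or slide 1 alone (-1.81 each) and Exoseal replicate 1 counted as TAG (-1.49). With 1 array left out it ran from -2.27 to -1.48. ICAM1 reversed with median scaling (-0.33) and Exoseal replicate 1 counted as TAG (-0.036), and ran from -0.28 to 0.63 with 1 array left out. SELE reversed with median scaling (-0.25), normexp (-0.042) and Exoseal replicate 1 counted as TAG (-0.41), and ran from -0.34 to 1.14 with 1 array left out. VCAM1 reversed with slide as a block and on slide 1 alone (0.15 each), and ran from -0.64 to 0.50 with 1 array left out. The cause was not tested. The count of 2139 features past the threshold in limma became 1105 with median scaling, 1152 with normexp, 3529 with Exoseal replicate 1 counted as TAG, and 0 without the filter (13159 at an unadjusted p under 0.05). Same-numbered arrays did not deviate together (correlations of -0.20, 0.072 and -0.076, and 1 of 3 numbers with its own number as best partner). With 3 arrays per group this check cannot exclude that same-numbered arrays belong together. The replicate block brought the count to 0 (5699 at an unadjusted p under 0.05 in limma). With 1 array left out it ran from 0 to 6957, the latter without Exoseal replicate 1, and was 0 without any other array (4081 to 5689 at an unadjusted p under 0.05).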
